A study of Mus musculus with 2 samples.

Results

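The 10 genes described here belong to the tumour necrosis factor (TNF) superfamily of ligands and receptors, and were named by their symbols among the 24785 genes that the count tables of either library list. Of the 10, 7 encode receptors (Tnfrsf4, Tnfrsf9, Tnfrsf18, Tnfrsf1b, Tnfrsf1a, Cd40 and Tnfrsf13c) and 3 encode ligands (Tnf, Cd40lg and Tnfsf13b), so the set is wider than costimulatory receptors alone. All 10 were listed in both libraries. Lungs of C57BL/6N mice gave living CD45+ cells, which were sorted and captured as single cells with the BD Rhapsody whole transcriptome assay. The BLM library came from mice 15 days after intratracheal bleomycin, a DNA-damaging drug that is used to bring about lung injury and fibrosis, and the naive library came from mice given no treatment. Each library pooled cells of 3 mice, age- and sex-matched adults per the study's methods, and the animals cannot be told apart within it.

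Each condition was therefore 1 library. No difference between BLM and naive has a replicate check, no test between them was made, and the intervals given below are 95% intervals that cover counting error only. The BLM library held 4390 cells after filtering with a median of 2380 unique molecular identifiers (UMIs, each standing for 1 captured transcript), and the naive library held 3807 cells with a median of 2697. A total of 22 cell barcodes occurred in both libraries. Cells were put into classes by panels of marker genes that hold none of the 10 genes, and 16 classes with at least 20 cells in each library are compared. Regulatory T cells (Tregs) were T cells with a Foxp3 UMI, 88 in the BLM library and 22 in the naive library. Activated and naive-like CD4 T cells were T cells with Cd4 and without Foxp3, split by small panels of activation and naive genes. CD8 T cells had Cd8a or Cd8b1 without Cd4 and were split likewise, and γδ T cells had Trdc with neither. CD4 and CD8 T cells in which the panels tied are in none of the 16 classes. Nor are activated CD8 T cells, with 36 BLM and 16 naive cells. A T cell that met none of these gates is called an other T cell. A level is the sum of a gene's UMIs over a class, scaled to 1e+06 UMIs of that class (CPM).

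TNF superfamily ligands are mostly trimers on the cell surface or shed from it, and they cluster their receptors on the neighbouring cell. The clustered receptors recruit TRAF adaptors and activate NF-kB, which favours survival and cytokine production. OX40 (Tnfrsf4), 4-1BB (Tnfrsf9) and GITR (Tnfrsf18) are induced on activated T cells and are carried by Tregs, where they are known to sustain the cells. TNF acts through TNFR1 (Tnfrsf1a), which many cell types carry and which can signal death, and through TNFR2 (Tnfrsf1b), which is carried mainly by leukocytes and endothelium. CD40 on B cells, macrophages and dendritic cells (DCs) receives help from CD40 ligand (Cd40lg) on T cells, and BAFF (Tnfsf13b), made by myeloid and stromal cells, keeps B cells alive through the BAFF receptor (Tnfrsf13c).

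On GRCm38, Tnfrsf4 lies on chromosome 4 from 156013843 to 156016612 and Tnfrsf18 from 156026164 to 156028895, both on the plus strand with 9551 bases between them. Tnfrsf9 (150914562 to 150946102, plus strand) and Tnfrsf1b (145213463 to 145246870, minus strand) are on the same chromosome. Tnf lies at 35199381 to 35202007 on the minus strand of chromosome 17, Tnfrsf1a at 125349362 to 125362484 on chromosome 6, Cd40 at 165055627 to 165072948 on chromosome 2, Cd40lg at 57212143 to 57224042 on chromosome X and Tnfsf13b at 10006467 to 10039072 on chromosome 8, all on the plus strand except Tnf. Tnfrsf13c lies at 82221743 to 82224369 on the minus strand of chromosome 15. Tnfrsf9 shares 28781 bases with Camta1, and Tnfrsf18 lies wholly within the antisense gene Gm16008, both on the opposite strand. Tnfsf13b shares 3101 bases with Gm44789, also on the opposite strand. Whether the counting used strand is not given in the sources used here. Gm16008 had 0 UMIs in the Tregs of either library, and Camta1 had 8 UMIs in BLM Tregs and 2 in naive Tregs, against 247 and 32 for Tnfrsf9.

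Promoter windows of 8 of the 10 genes were found in the RefSeq table (GRCm38.p6). The 250 bases before the start are shown for the ligand gene that differed most clearly between the libraries in neutrophils (Tnf), for a receptor carried by Tregs (Tnfrsf9), for a receptor found across leukocytes (Tnfrsf1b) and for the receptor that was nearly confined to B cells in these libraries (Tnfrsf13c), choosing among windows in which no exon is annotated. Tnfrsf9 has a second window in the table at another start, which is not shown. Each is written 5′ to 3′ on the gene's strand. Capitals mark the letters GGGNNNNNCC, the outline of an NF-kB site, on either strand. Matches that overlap are run together.
Tnf (chr17:35202008-35202257, minus strand): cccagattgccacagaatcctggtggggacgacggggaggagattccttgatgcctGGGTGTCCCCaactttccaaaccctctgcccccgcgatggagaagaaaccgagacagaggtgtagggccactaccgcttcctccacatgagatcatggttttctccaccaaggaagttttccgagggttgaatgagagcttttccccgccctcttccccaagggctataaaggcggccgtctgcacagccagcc
Tnfrsf9 (chr4:150919905-150920154, plus strand): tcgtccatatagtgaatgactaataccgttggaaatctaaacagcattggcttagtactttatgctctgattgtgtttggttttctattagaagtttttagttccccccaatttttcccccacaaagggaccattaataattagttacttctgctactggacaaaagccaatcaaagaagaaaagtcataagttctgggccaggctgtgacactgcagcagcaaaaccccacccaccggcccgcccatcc
Tnfrsf1b (chr4:145246871-145247120, minus strand): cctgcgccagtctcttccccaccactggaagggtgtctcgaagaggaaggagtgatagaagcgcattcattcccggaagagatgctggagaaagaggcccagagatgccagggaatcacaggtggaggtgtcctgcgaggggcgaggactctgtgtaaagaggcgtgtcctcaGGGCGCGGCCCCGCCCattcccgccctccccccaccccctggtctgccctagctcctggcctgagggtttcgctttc
Tnfrsf13c (chr15:82224381-82224630, minus strand): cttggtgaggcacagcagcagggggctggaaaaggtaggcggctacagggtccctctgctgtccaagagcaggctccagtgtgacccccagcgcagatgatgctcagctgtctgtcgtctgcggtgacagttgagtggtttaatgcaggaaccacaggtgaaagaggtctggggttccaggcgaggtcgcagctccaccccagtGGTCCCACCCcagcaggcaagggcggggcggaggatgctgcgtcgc
The Tnf window held 1 match, which began 194 bases before the start, the Tnfrsf1b window held 3 overlapping matches between 77 and 71 bases before it, the Tnfrsf13c window held 1 and the Tnfrsf9 window shown held none. The second Tnfrsf9 window, which is not shown, held 2 overlapping matches, 43 and 42 bases before its own start. Of all 32851 promoter windows in the table, 45.8% held the same letters, so a match is common and is given only as a description. Of the 10 windows found for the 8 genes, 5 held them.

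The class levels of the 10 genes fell into a few patterns. Among the 16 classes, Tnfrsf4, Tnfrsf9 and Tnfrsf18 were highest in lymphocytes, Tnfrsf1b was found in every class, Tnfrsf1a and Tnf were highest in neutrophils and other myeloid cells, Cd40 in DCs and B cells, Cd40lg in T cells, Tnfsf13b in neutrophils and DCs, and Tnfrsf13c in B cells. Over the 16 classes, 71 of the 160 gene and class pairs had at least 20 UMIs in the libraries together. Of these 71, 5 were at least 2-fold higher in the BLM library and 10 at least 2-fold lower. Among all genes with 20 UMIs over the same classes, 5.61% of pairs were at least 2-fold higher and 7.37% at least 2-fold lower. With a minimum of 50 UMIs, 49 pairs were left, of which 3 were at least 2-fold higher and 5 lower. Of the 59316 pairs of all genes at that minimum, 2424 (4.09%) were at least 2-fold higher and 2966 at least 2-fold lower. Together, 5390 (9.09%) passed 2-fold in either direction.

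**Figure D1:**
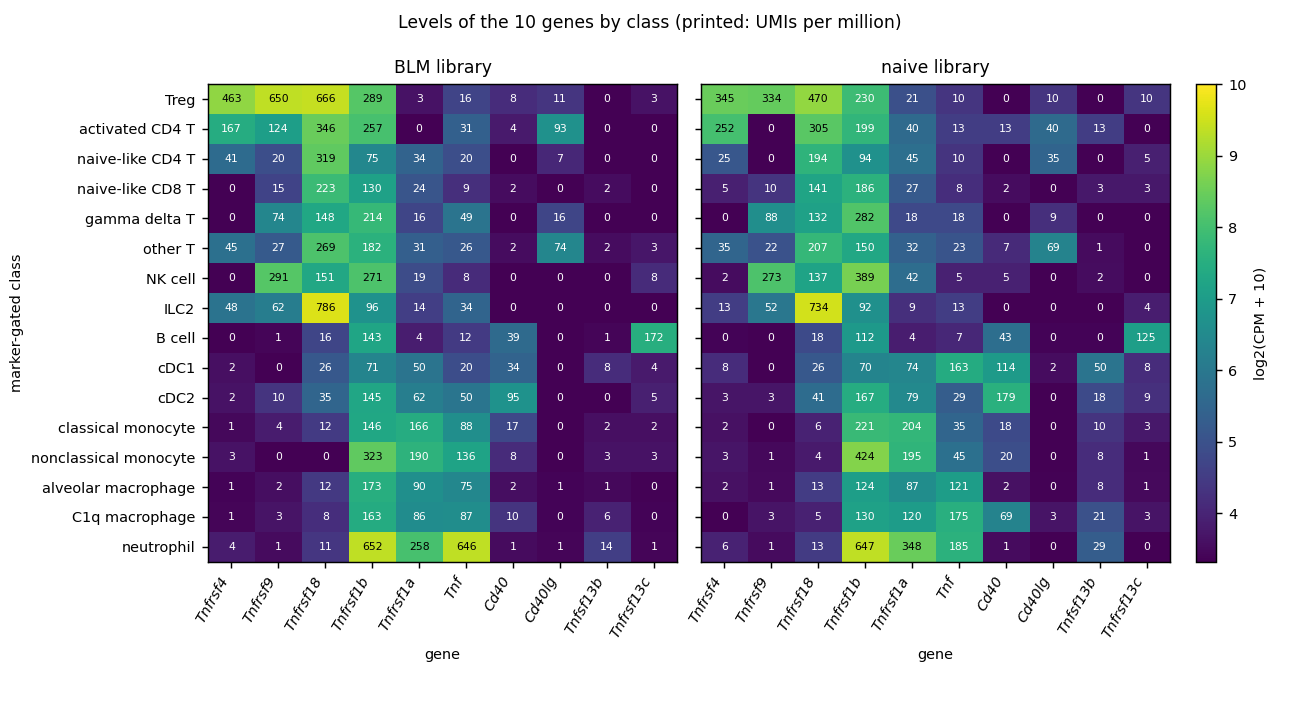
Level of each of the 10 genes (columns) in the 16 marker-gated classes (rows) of the BLM library and the naive library, with colour giving log2(CPM + 10) and the printed number giving the CPM. Tnfrsf4 and Tnfrsf9 are highest in Tregs in both libraries, Tnfrsf18 in ILC2 and Tregs, Tnf in neutrophils and Tnfrsf13c in B cells.

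Tnfrsf4, which encodes the receptor OX40, had its highest level in Tregs in both libraries. The 88 BLM Tregs gave 176 UMIs, or 463 CPM [397, 537], and the 22 naive Tregs gave 33 UMIs, or 345 CPM [237, 484]. Of the 33 naive UMIs, 11 came from 1 cell. A UMI was seen in 71.6% of BLM Tregs and 63.6% of naive Tregs, whose median depths were 2999 and 2812 UMIs. After each cell was thinned to 1000 UMIs, the shares were 39.2% and 31.1%. In B cells, which are not known to carry OX40, the share was 0 of 605 cells in the BLM library, which at a floor of 3 cells allows up to 0.496%, and 0.125% in the naive library, at median depths of 1702 and 1962. The log2 ratio of BLM over naive in Tregs was 0.43 [−0.12, 1.01], so a difference between the libraries was not detectable at this depth.

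Activated CD4 T cells came next. They held 167 CPM [121, 225] of Tnfrsf4 in the BLM library and 252 CPM [152, 393] in the naive library. The level was below that of Tregs beyond counting error in the BLM library, whereas the intervals of the classes overlapped in the naive library. The 19 naive UMIs of activated CD4 T cells came from 4 of 24 cells, with 9 in a single cell. A UMI was seen in 16.7% of these cells, against 63.6% of naive Tregs and 29.1% of BLM activated CD4 T cells. Naive-like CD8 T, γδ T and NK cells gave 0 Tnfrsf4 UMIs in the BLM library, with upper limits of 6.32, 30.4 and 14.3 CPM. In the naive library naive-like CD8 T cells were at 5.08 CPM and NK cells at 1.76 CPM. The γδ T cells gave 0 UMIs there too, with an upper limit of 32.5 CPM. Of all Tnfrsf4 UMIs, Tregs gave 53.3% in the BLM library and 25.6% in the naive library. Tregs made up 2.005% and 0.578% of the kept cells.

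Tnfrsf9 encodes 4-1BB, a receptor that marks recently stimulated T cells and Tregs. BLM Tregs held 247 UMIs (650.0 CPM [571, 736]) and naive Tregs 32 UMIs (334 CPM [229, 472]). The log2 ratio was 0.96 [0.43, 1.54]. The share of Tregs with a UMI was 60.2% [49.2, 70.5] in the BLM library and 45.5% [24.4, 67.8] in the naive library, or 38.3% and 22.9% after thinning, and the intervals of these shares overlapped. When the ratio was taken from a single random draw of 1000 UMIs per cell, it was 0.25 [−0.59, 1.20] and its interval took in 0. The thinned shares are expected values over such draws, so the values come from different calculations. One BLM Treg held 17 Tnfrsf9 UMIs.

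NK cells came next for Tnfrsf9 among the 16 classes. They held 291 CPM [229, 364] in the BLM library and 273 CPM [231, 319] in the naive library, a log2 ratio of 0.09 [−0.33, 0.50]. In the BLM library Tregs were above NK cells beyond counting error, while in the naive library the intervals overlapped. NK cells outnumbered Tregs in naive lung (251 against 22 cells) and gave 56.0% of all Tnfrsf9 UMIs there, whereas Tregs gave 43.3% of them in the BLM library. Mature DCs, which had too few naive cells to be among the 16 classes, gave 17.2% in the BLM library, where NK cells gave 13.2%. Activated CD4 T cells held 32 Tnfrsf9 UMIs in 12 of 86 cells of the BLM library and 0 UMIs in 24 cells of the naive library, where a count of 0, read as a floor of 3 cells, allows a share of up to 12.5%. Set against a floor of 3 UMIs in the naive class, this was 3.13-fold higher, and the lower limit of the log2 ratio was 1.26. Of the 32 UMIs, 10 came from a single cell. In that class 10.8% of all genes tested were at least 2-fold higher. With classes taken from clusters the same class held 31 and 2 UMIs.

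Tnfrsf18, which encodes GITR, was the most widely spread of the lymphocyte receptors. Its highest level was in group 2 innate lymphoid cells (ILC2), with 115 UMIs (786 CPM [649, 944]) in 38 BLM cells and 168 UMIs (734 CPM [627, 854]) in 98 naive cells. Tregs followed with 253 UMIs (666 CPM [586, 753]) and 45 UMIs (469.8 CPM [343, 629]), and their interval overlapped that of ILC2 in each library. The share of cells with a UMI was 81.6% and 79.6% for ILC2 and 81.8% and 63.6% for Tregs. It was 3.31% and 4.24% in B cells, at 16.4 and 18.2 CPM, and is read here as background.

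Between the libraries, Tnfrsf18 stood at the same level in ILC2 within counting error, with a log2 ratio of 0.10 [−0.26, 0.45]. In each of the T cell classes shown the ratio was above 0. The log2 ratio was 0.50 [0.04, 0.99] in Tregs, 0.72 [0.08, 1.37] in naive-like CD4 T cells, 0.66 [0.26, 1.08] in naive-like CD8 T cells and 0.38 [0.05, 0.72] in other T cells. The intervals of activated CD4 T cells (0.18 [−0.49, 0.91]) and γδ T cells (0.17 [−0.91, 1.26]) took in 0. None of these values reached 2-fold. The Treg interval also took in 0 with doublets kept (0.45 [−0.0049, 0.94]) and after thinning (0.58 [−0.40, 1.71]). So did those of naive-like CD4 T cells with at least 3 panel genes (0.52 [−0.18, 1.21]) or doublets kept (0.62 [−0.00020, 1.25]), naive-like CD8 T cells after thinning (0.64 [−0.08, 1.37]) and other T cells with classes from clusters (0.29 [−0.04, 0.62]) or at most 10% mitochondrial UMIs (0.28 [−0.08, 0.64]).

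Tnfrsf1b, which encodes TNFR2, was seen in every lymphocyte class. BLM Tregs held 110 UMIs (289 CPM [238, 349]) and naive Tregs 22 UMIs (229.7 CPM [144, 348]), with a log2 ratio of 0.33 [−0.34, 1.07]. Activated CD4 T cells held 257 and 199 CPM, and naive-like CD4 T cells held 74.8 and 94.4 CPM. NK cells were at 271 CPM in the BLM library and 389 CPM in the naive library (log2 ratio −0.52 [−0.93, −0.13]). B cells were at 143 and 112 CPM (0.35 [0.06, 0.63]). After thinning both intervals took in 0, at −0.53 [−1.16, 0.06] in NK cells and 0.34 [−0.09, 0.78] in B cells, and that of B cells also with at most 10% mitochondrial UMIs (0.37 [−0.0052, 0.73]). In naive-like CD8 T cells the ratio was −0.52 [−0.96, −0.08], and it was 0.11 [−0.65, 0.87] after thinning.

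**Figure D2:**
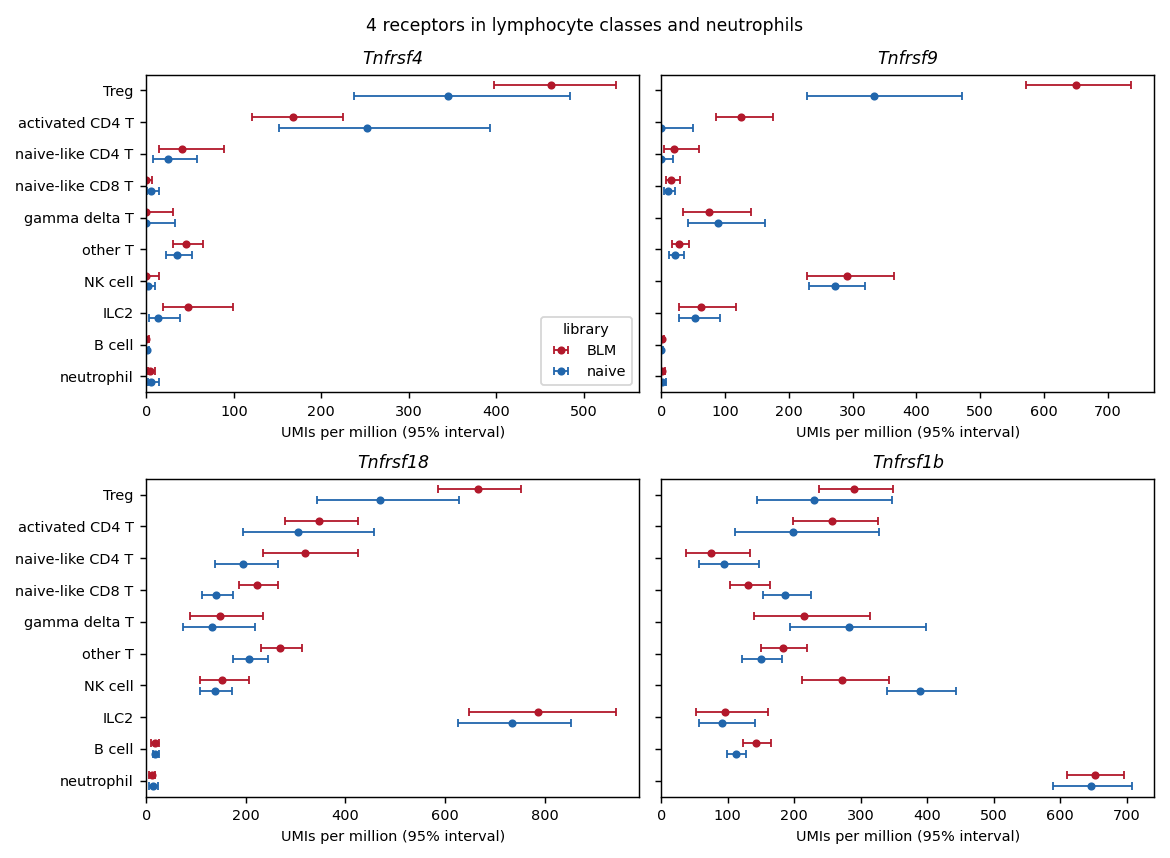
Levels of Tnfrsf4, Tnfrsf9, Tnfrsf18 and Tnfrsf1b (x axis, CPM, 95% counting intervals as bars) in 9 lymphocyte classes and in neutrophils (y axis), with the BLM library in red and the naive library in blue. Tregs hold the highest points for Tnfrsf4 and Tnfrsf9, ILC2 for Tnfrsf18 and neutrophils for Tnfrsf1b.

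Within the BLM library, Tregs were set against all 716 other T cells of the same library. Both come from 1 library, so handling is shared, and the intervals again cover counting only. Depth per cell differed, with a median of 2999 UMIs in these Tregs and 2443.5 in the other T cells. Tnfrsf9 was at 650.0 CPM in Tregs and 40.4 CPM in the other T cells, a log2 ratio of 4.01 [3.64, 4.40]. Tnfrsf4 was at 463 and 43.5 CPM (3.41 [3.03, 3.81]), Tnfrsf18 at 666 and 255 CPM (1.39 [1.16, 1.61]) and Tnfrsf1b at 289 and 171 CPM (0.76 [0.44, 1.08]). The naive library gave a like order, with 4.27 [3.51, 5.03] for Tnfrsf9, 3.57 [2.89, 4.22] for Tnfrsf4, 1.40 [0.91, 1.85] for Tnfrsf18 and 0.45 [−0.25, 1.07] for Tnfrsf1b. Cd40lg, the helper ligand, went the other way, at 10.5 CPM in BLM Tregs and 38.8 CPM in the other T cells (−1.88 [−3.80, −0.47]), and Tnfrsf1a was at 2.63 and 22.8 CPM (−3.11 [−8.45, −0.56]). These Treg levels rested on 4 Cd40lg UMIs and 1 Tnfrsf1a UMI. In the naive library both intervals took in 0, at −1.71 [−7.03, 0.82] for Cd40lg and −0.56 [−3.64, 1.36] for Tnfrsf1a. Of the 7 genes with at least 20 UMIs in this comparison, 3 were at least 2-fold higher in Tregs and 2 at least 2-fold lower, where 10.5% and 12.2% of all 8112 genes tested were.

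Foxp3 itself, which gated the cells, was at 768 CPM in BLM Tregs and 480.2 CPM in naive Tregs. BLM Tregs had a median of 3 of the 6 ILC2 panel genes and naive Tregs a median of 1. That panel holds Gata3, Il1rl1, Rora and Areg, which tissue Tregs also express, and its part in these levels was not tested. With Tregs taken from clusters, the BLM ratio over other T cells was 1.72 for Tnfrsf18 and 1.26 for Tnfrsf1b.

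The receptors were also seen together in single cells. Of the 88 BLM Tregs, 59 (67.0% [56.2, 76.7]) held UMIs of at least 3 of Tnfrsf4, Tnfrsf9, Tnfrsf18 and Tnfrsf1b, and 27 held all 4. Of the 22 naive Tregs, 9 (40.9% [20.7, 63.6]) held at least 3. Among other T cells the share was 4.05% in the BLM library and 1.58% in the naive library, and among B cells it was 0 of 605 and 0 of 801, where the floor of 3 cells is 0.496% and 0.375%. The intervals of BLM and naive Tregs overlapped, and those of Tregs and other T cells did not. Median depths were 2999 UMIs in Tregs and 2443.5 in other T cells of the BLM library, and 2812 and 2524 in the naive library. The part of depth in these shares was not tested. Activated CD4 T cells were not counted apart from the other T cells here.

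**Figure D3:**
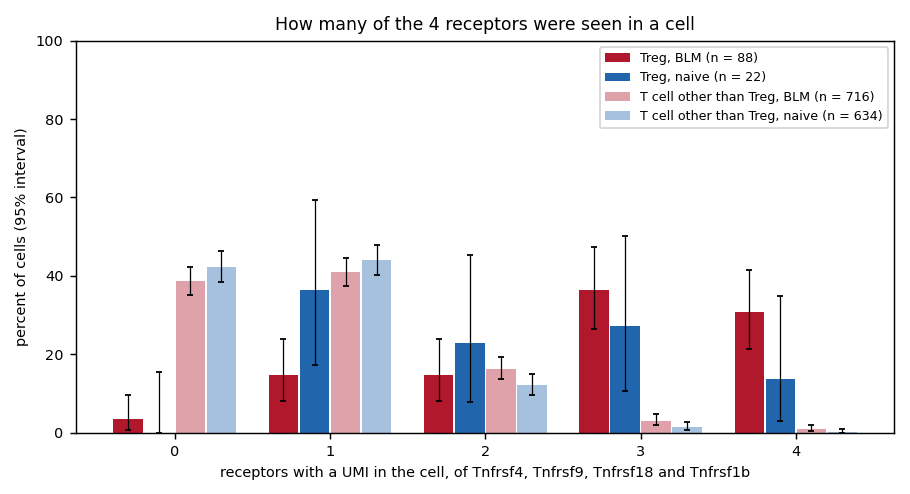
Percent of cells (y axis, exact 95% binomial intervals as bars) that held a UMI of 0 to 4 of the receptor genes Tnfrsf4, Tnfrsf9, Tnfrsf18 and Tnfrsf1b (x axis), for Tregs (full colour) and other T cells (pale), BLM in red and naive in blue. Most BLM Tregs held 3 or 4 of the receptors, and most other T cells held 0 or 1.

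Tff1, which encodes a secreted trefoil peptide and which the study followed in Tregs, had a UMI in 14 of the 88 BLM Tregs. Those 14 cells held 904 CPM [702, 1146] of Tnfrsf9 and the other 74 held 587 CPM [504, 680], a log2 difference of 0.62 [0.20, 1.03]. Tnfrsf18 was at 984 CPM [773, 1235] and 587 CPM [504, 680] (0.74 [0.33, 1.14]). Tnfrsf4 differed by 0.21 [−0.35, 0.73], Tnfrsf1b by −0.64 [−1.54, 0.15] and Foxp3 by −0.19 [−0.65, 0.25], intervals that all took in 0. The 14 cells had a median of 4123.5 UMIs and the 74 a median of 2905, and the part of depth in these differences was not tested.

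Over all T cells together Tnfrsf4, Tnfrsf9 and Tnfrsf18 differed more than within any of the T cell classes shown that had UMIs in both libraries. In T cells Tnfrsf9 reached 141 CPM in the BLM library against 33.4 CPM in the naive library (log2 ratio 2.07 [1.68, 2.48]), Tnfrsf4 at 112 and 45.1 CPM (1.32 [0.96, 1.69]) and Tnfrsf18 at 322 and 193 CPM (0.74 [0.56, 0.92]). Of all genes tested in T cells, 2.81% were at least 2-fold higher. Without Tregs the same ratios were 1.22 [0.60, 1.87], 0.58 [0.06, 1.11] and 0.51 [0.31, 0.72], and the interval for Tnfrsf4 took in 0 with at most 10% mitochondrial UMIs (0.29 [−0.25, 0.84]). Tregs were 88 of 804 T cells in the BLM library and 22 of 656 in the naive library, and activated CD4 T cells 86 and 24. These classes held the highest levels of the T cell classes shown for Tnfrsf4, Tnfrsf9 and Tnfrsf18 in the BLM library.

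Other genes of the pathway were looked at in Tregs from lists of receptors, ligands and signalling genes. Of 16 other TNF family receptors, 3 had at least 20 UMIs in Tregs of both libraries together, and 2 of these were at least 2-fold higher in the BLM library, where 10.8% of all genes tested were. They were Tnfrsf8 (CD30), with 29 UMIs in BLM Tregs and none in naive Tregs, and Tnfrsf13b, with 19 and 2 UMIs. Against a floor of 3 UMIs in naive Tregs, Tnfrsf8 was 2.44-fold higher, a value that leaves out the counting error of the BLM count. The ratio interval of Tnfrsf13b took in 0. Both genes reached 20 UMIs mainly through BLM Tregs, which held 380013 UMIs in all against 95785 in naive Tregs. The count of 2 in 3 and the median of the 3 receptors therefore depend on this minimum and are given as description only. The median log2 ratio was 1.26 for the 3 receptors, 0.46 for the 4 genes of the set with 20 UMIs and 0.01 for all genes. Of the 16 TRAF adaptors and NF-kB genes, 12 were tested and 1 was at least 2-fold higher. Traf1, an adaptor that binds these receptors and is itself an NF-kB target, was at 532 CPM in BLM Tregs and 303 CPM in naive Tregs (0.81 [0.25, 1.43]), and Nfkbia, the NF-kB inhibitor, at 1408 and 762 CPM (0.89 [0.53, 1.26]). The median of the 12 was −0.09. Of 7 immediate early genes tested in Tregs, 1 (Jun) was at least 2-fold lower, where 7.32% of all genes tested were.

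Tnf, the ligand that gives the family its name, had its highest level among the 16 classes in neutrophils. In the BLM library 1004 neutrophils held 903 UMIs (646 CPM [604, 689]) and in the naive library 451 neutrophils held 133 UMIs (185 CPM [155, 219.7]). The log2 ratio was 1.801 [1.54, 2.07], the highest Tnf ratio among the 16 classes with at least 20 UMIs. A UMI was seen in 35.5% of BLM and 17.7% of naive neutrophils, and in 32.1% and 13.4% after thinning, which left out 132 BLM and 11 naive cells of under 1000 UMIs. In the naive library the neutrophil interval overlapped those of C1q macrophages and cDC1, given below. Outside the 16 classes, 11 naive basophils or mast cells held 14 Tnf UMIs (369 CPM [202, 619.7]) in 3 cells. In B cells of the same libraries the shares were 1.98% and 1.75%. Median depths were 1329 and 1580 UMIs for neutrophils. The single largest neutrophil value was 11 UMIs, so the difference did not rest on 1 cell. In neutrophils 5.30% of all genes tested were at least 2-fold higher.

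Monocytes leaned the same way. Classical monocytes held 88.3 CPM [70.2, 109.6] of Tnf in the BLM library and 35.1 CPM [23.8, 49.8] in the naive library (1.33 [0.72, 1.98]), and nonclassical monocytes held 136 CPM [102, 178] and 45.5 CPM [33.2, 60.8] (1.58 [0.98, 2.19]). The background of genes at least 2-fold higher was 5.87% and 4.16% in these classes. After thinning the ratios were 0.43 [−0.79, 1.69] and 1.05 [−0.03, 2.15], both taking in 0.

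Macrophages and type 1 DCs (cDC1) went the other way. Alveolar macrophages held 75.0 CPM [66.4, 84.4] in the BLM library and 121 CPM [113, 130.1] in the naive library (−0.70 [−0.90, −0.50]), with a single naive cell at 58 UMIs. C1q macrophages held 86.5 CPM [79.4, 94.1] and 175 CPM [136, 223] (−1.02 [−1.39, −0.63]). The cDC1 held 10 UMIs in 56 BLM cells (19.8 CPM) and 102 UMIs in 86 naive cells (163 CPM [133, 198]), a log2 ratio of −3.04 [−4.14, −2.10], and 26 of the naive UMIs and 9 of the BLM UMIs each came from 1 cell. In cDC2 the ratio was 0.79 [−0.19, 1.78]. Of all Tnf UMIs, alveolar macrophages gave 60.3% in the naive library and 12.7% in the BLM library, and neutrophils gave 9.86% and 41.6%.

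Median depths were 11679 and 9762 UMIs for alveolar macrophages and 10708.5 and 5034 for C1q macrophages, BLM first. Some of these cells were near the border of their gate. Of BLM alveolar macrophages, 154 of 309 led the next class by only 1 panel gene, against 33 of 662 naive cells. Of BLM C1q macrophages, 191 of 566 did, against 12 of 69. With classes taken from clusters, the Tnf ratio was −0.41 [−0.73, −0.08] in C1q macrophages and −0.80 [−0.97, −0.63] in alveolar macrophages.

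Signalling genes were set beside Tnf in the same classes. In neutrophils 14 of the 16 TRAF adaptors and NF-kB genes were tested. Of these, 5 were at least 2-fold higher (Nfkb1, Rel, Tnfaip3, Traf1 and Traf6) and none lower. Among all genes tested in neutrophils, 5.30% were at least 2-fold higher and 5.79% at least 2-fold lower. The median log2 ratio of the 14 was 0.65 where that of all genes was −0.06. Nfkb1, a subunit of NF-kB, was at 195 CPM in BLM and 73.9 CPM in naive neutrophils (1.40 [0.97, 1.85]), Rel, another subunit, at 423 and 185 CPM (1.19 [0.92, 1.47]) and Tnfaip3, which encodes the inhibitor A20, at 1971 and 905 CPM (1.12 [0.9998, 1.25]). Immediate early genes respond to tissue handling as well as to stimulation. Egr1 was at 202 CPM in BLM and 1153 CPM in naive neutrophils (−2.51 [−2.71, −2.32]) and Fos at 1067 and 3688 CPM (−1.79 [−1.88, −1.70]). Of 9 tested, 1 (Hspa1a) was at least 2-fold higher and these 2 lower. Classical monocytes had Tnfaip3 at 392 and 112 CPM (1.81 [1.48, 2.14]) and Nfkbia at 2048 and 702 CPM (1.55 [1.41, 1.68]). Nonclassical monocytes also had both at least 2-fold higher, at 1.23 [0.92, 1.54] and 1.01 [0.87, 1.14]. In classical monocytes 3 of 10 immediate early genes, and in nonclassical monocytes 1 of 10, were at least 2-fold higher, with Hspa1a at 2.49 and 1.72. Of all genes tested in these classes, 5.87% and 4.16% were.

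In cDC1, by contrast, 7 of the 13 tested TRAF adaptors and NF-kB genes were at least 2-fold lower in the BLM library, where 9.02% of all genes tested were, and 1 was higher. The median log2 ratio was −1.31 against 0.03 for all genes. Icam1, an adhesion molecule under NF-kB control, was at 33.7 CPM in BLM and 496 CPM in naive cDC1 (−3.88 [−4.68, −3.18]), and Traf1 at 95.3 and 407 CPM (−2.09 [−2.57, −1.64]). The immediate early genes were lower as well, 5 of 10 by at least 2-fold, with Fosb at 363 and 2457 CPM (−2.76 [−2.99, −2.54]) and Jun at 45.6 and 229 CPM (−2.33 [−3.03, −1.69]). C1q macrophages had 8 of 16 signalling genes and 5 of 10 immediate early genes at least 2-fold lower, where 14.4% of all genes tested were, and none of either list higher, with medians of −1.02 and −1.21 against −0.04 for all genes. In alveolar macrophages none of 16 signalling genes passed 2-fold and 5 of 10 immediate early genes were at least 2-fold lower, where 9.66% of all genes tested were. The part of the immediate early genes in the Tnf values was not tested.

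Tnfrsf1a, which encodes TNFR1, was a myeloid and stromal gene here. Neutrophils held 258 CPM [232, 286] in the BLM library and 348 CPM [307, 394] in the naive library (−0.43 [−0.67, −0.19]). Nonclassical monocytes held 189.7 and 195 CPM, classical monocytes 166 and 204 CPM and alveolar macrophages 90.5 and 86.6 CPM, ratios whose intervals all took in 0. C1q macrophages held 85.6 CPM [78.5, 93.1] and 119.6 CPM [87.3, 160.1] (−0.48 [−0.92, −0.01]), and after scaling by size factors the interval took in 0 (−0.31 [−0.75, 0.16]). B cells held 4.46 and 4.43 CPM. Naive-like CD4 T cells held 34.0 CPM [11.0, 79.3] and 44.7 CPM [20.4, 84.9], and other T cells 30.7 and 32.3 CPM. The BLM interval of naive-like CD4 T cells overlapped that of cDC1, at 49.6 CPM [32.1, 73.2]. In NK cells the level was 19.4 and 42.2 CPM from 5 and 24 UMIs, a log2 ratio of −1.12 [−2.87, 0.29], and 7.13% of all genes tested in NK cells were at least 2-fold lower.

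Tnfrsf1b in myeloid cells was highest in neutrophils, at 652 CPM [611, 696] in the BLM library and 647 CPM [589, 708] in the naive library. The log2 ratio was 0.01 [−0.15, 0.18]. Nonclassical monocytes followed with 323 CPM [269, 385] and 424 CPM [385, 467] (−0.39 [−0.69, −0.10], or −0.26 [−0.79, 0.26] after thinning), and classical monocytes held 146 and 221 CPM (−0.59 [−0.92, −0.27]). Alveolar macrophages leaned to the BLM library, with 173 CPM [159.7, 187] and 124 CPM [115, 132] (0.48 [0.33, 0.64]), a ratio that was 0.10 [−0.49, 0.66] after thinning.

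The balance of both TNF receptors differed among the classes. Of all UMIs of Tnfrsf1b and Tnfrsf1a together, Tnfrsf1b gave 99.1% [95.1, 99.98] in BLM Tregs and 91.7% [73.0, 99.0] in naive Tregs. In B cells it gave 97.0% and 96.2%. Not all lymphocyte classes were as high. Other T cells were at 85.6% and 82.3%, and naive-like CD4 T cells at 68.75% [41.3, 89.0] and 67.9% [47.6, 84.1], within the range of the myeloid classes. The share was 71.6% [69.1, 74.1] and 65.0% [61.4, 68.5] in neutrophils, 65.6% [62.5, 68.6] and 58.8% [56.2, 61.4] in alveolar macrophages, 65.6% [63.2, 68.0] and 52.1% [41.6, 62.5] in C1q macrophages, and 46.9% [41.0, 52.8] and 52.0% [46.8, 57.2] in classical monocytes, the lowest class in the BLM library. In neutrophils and both macrophage classes the intervals of the libraries did not overlap. The genes differ in length and in capture, so the share can be compared between classes but is not a ratio of receptor amounts.

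**Figure D4:**
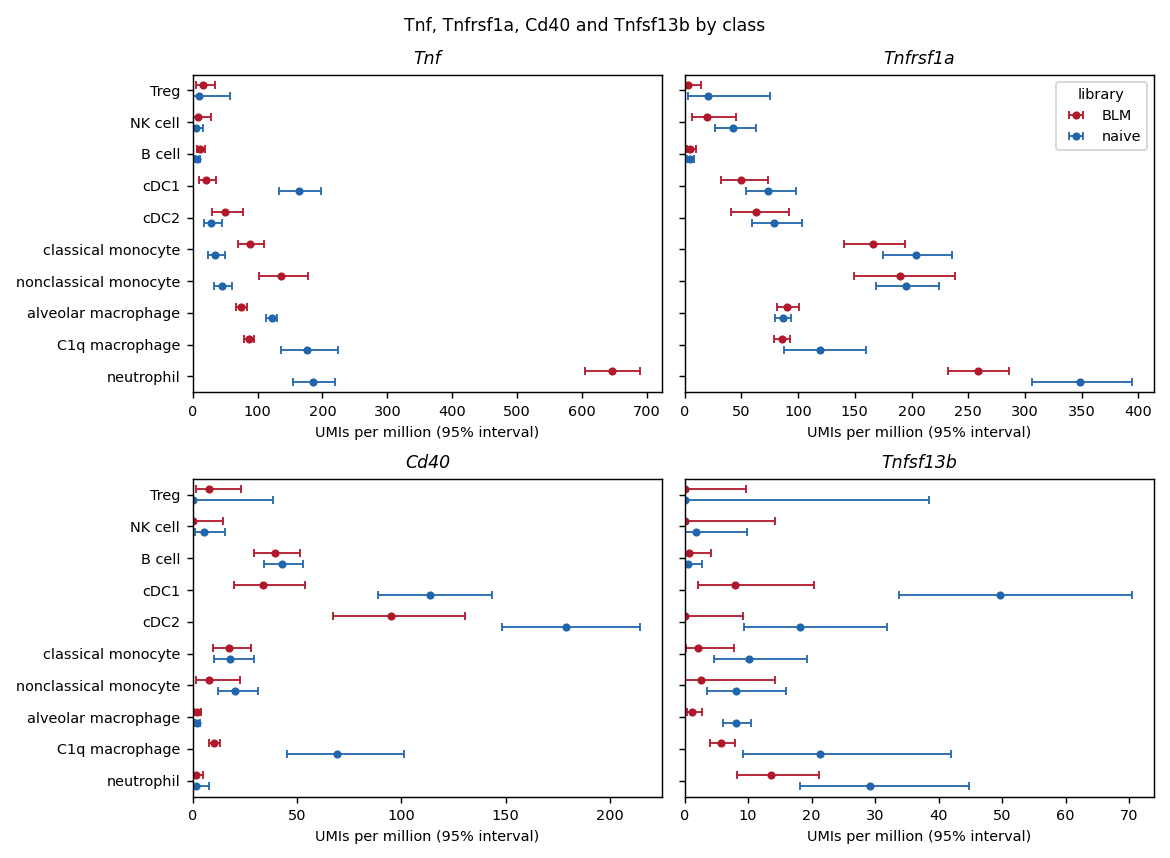
Levels of Tnf, Tnfrsf1a, Cd40 and Tnfsf13b (x axis, CPM, 95% counting intervals as bars) in 10 classes (y axis), BLM in red and naive in blue. Tnf is higher in BLM neutrophils and monocytes and lower in BLM cDC1 and macrophages. Cd40 lies lower in BLM cDC1, cDC2 and C1q macrophages, and Tnfsf13b in BLM cDC1, macrophages and neutrophils.

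Cd40 was highest in DCs. The 49 cDC2 of the BLM library held 94.9 CPM [67.2, 130.3] and the 89 of the naive library held 179 CPM [148, 214] (−0.92 [−1.48, −0.38]). With classes taken from clusters this ratio was −0.35 [−0.82, 0.10], and 25 of the 49 BLM cells and 44 of the 89 naive cells led the next class by only 1 panel gene. In cDC1 it was at 33.7 CPM [19.7, 54.0] and 114 CPM [88.8, 143] (−1.75 [−2.61, −0.97]). After thinning the intervals of both took in 0, at −0.04 [−1.96, 1.70] in cDC2 and −1.81 [−5.03, 0.38] in cDC1. Mature DCs, which had 69 cells in the BLM library but only 16 in the naive library and are outside the 16 classes, held 218 CPM [177, 266] and 415 CPM [298, 563].

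B cells, the textbook carriers of CD40, held 39.4 CPM [29.5, 51.6] in the BLM library and 42.8 CPM [34.3, 52.8] in the naive library. The log2 ratio was −0.12 [−0.64, 0.39]. C1q macrophages held 10.2 CPM [7.90, 13.1] and 69.1 CPM [45.1, 101] (−2.75 [−3.43, −2.04]), or −1.69 [−2.27, −1.08] with classes from clusters. Nonclassical monocytes held 3 and 20 UMIs (−1.39 [−3.79, 0.36]), where 4.67% of all genes tested were at least 2-fold lower. Neutrophils held 1.43 and 1.39 CPM, which is read here as background.

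Cd40lg was found in T cells only at low levels, with 79 UMIs in BLM and 62 UMIs in naive T cells (34.2 and 32.9 CPM, log2 ratio 0.05 [−0.44, 0.56]). Activated CD4 T cells held 24 UMIs in 15 of 86 BLM cells (93.3 CPM [59.8, 139]) and 3 UMIs in the naive class (39.8 CPM), a ratio of 1.23 [−0.49, 3.61] that did not separate the libraries. Other T cells, with neither Cd4, Cd8 nor Trdc transcripts or with both Cd4 and Cd8, held 74.2 and 68.9 CPM, and gave 50.5% of all Cd40lg UMIs in the BLM library and 69.1% in the naive library. In all CD4 T cells without Foxp3, the ratio was 0.58 [−0.47, 1.71] from 25 and 12 UMIs, and it was −1.66 [−4.24, 0.47] after thinning.

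Tnfsf13b, which encodes BAFF, was scarce and lay lower in the BLM library in each of the 4 shown classes with at least 20 UMIs. Neutrophils held 19 UMIs (13.6 CPM [8.18, 21.2]) in the BLM library and 21 UMIs (29.3 CPM [18.1, 44.7]) in the naive library (−1.11 [−2.08, −0.14]). The cDC1 held 4 and 31 UMIs (7.94 and 49.6 CPM, −2.64 [−4.61, −1.14]), alveolar macrophages 4 and 54 UMIs (1.09 and 8.07 CPM, −2.89 [−4.82, −1.45]) and C1q macrophages 36 and 8 UMIs (5.67 and 21.3 CPM, −1.91 [−3.04, −0.59]). The share of all genes tested that were at least 2-fold lower was 5.79% in neutrophils, 9.02% in cDC1, 9.66% in alveolar macrophages and 14.4% in C1q macrophages. After thinning the intervals of neutrophils (−0.66 [−1.86, 0.56]), cDC1 (−1.36 [−6.98, 1.98]) and C1q macrophages (−0.18 [−3.14, 5.31]) took in 0.

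The most Tnfsf13b UMIs of any BLM class came from stromal cells, which a CD45 sort is meant to leave out. The 35 stromal cells of the BLM library, gated on Sparc, Mgp, Igfbp7, Col1a2, Cdh5 and Col4a1, held 58 UMIs (225 CPM [171, 291]), or 40.8% of all Tnfsf13b UMIs of that library. All 58 were in cells with a Col1a2 UMI, a fibroblast collagen gene, and none in the cells with only other panel genes. They came from 8 cells, with 17 UMIs in the highest. The naive library had 19 stromal cells, under the limit of 20, with 1 UMI (12.0 CPM).

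Tnfrsf13c, which encodes the BAFF receptor, was nearly confined to B cells. B cells held 231 UMIs (172 CPM [150.4, 195]) in the BLM library and 254 UMIs (125 CPM [110.1, 141]) in the naive library, which were 89.2% and 80.4% of all its UMIs. The log2 ratio was 0.46 [0.20, 0.72], and 0.30 [−0.01, 0.61] with B cells taken from clusters. A UMI was seen in 24.6% and 20.3% of B cells, and in 13.6% and 10.03% after thinning. Neutrophils held 0.715 CPM in the BLM library and 0 in the naive library. Tnfrsf13b, which encodes TACI, another BAFF receptor, was at 93.0 CPM in BLM and 126 CPM in naive B cells (−0.43 [−0.75, −0.12]), the opposite direction to Tnfrsf13c.

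**Figure D5:**
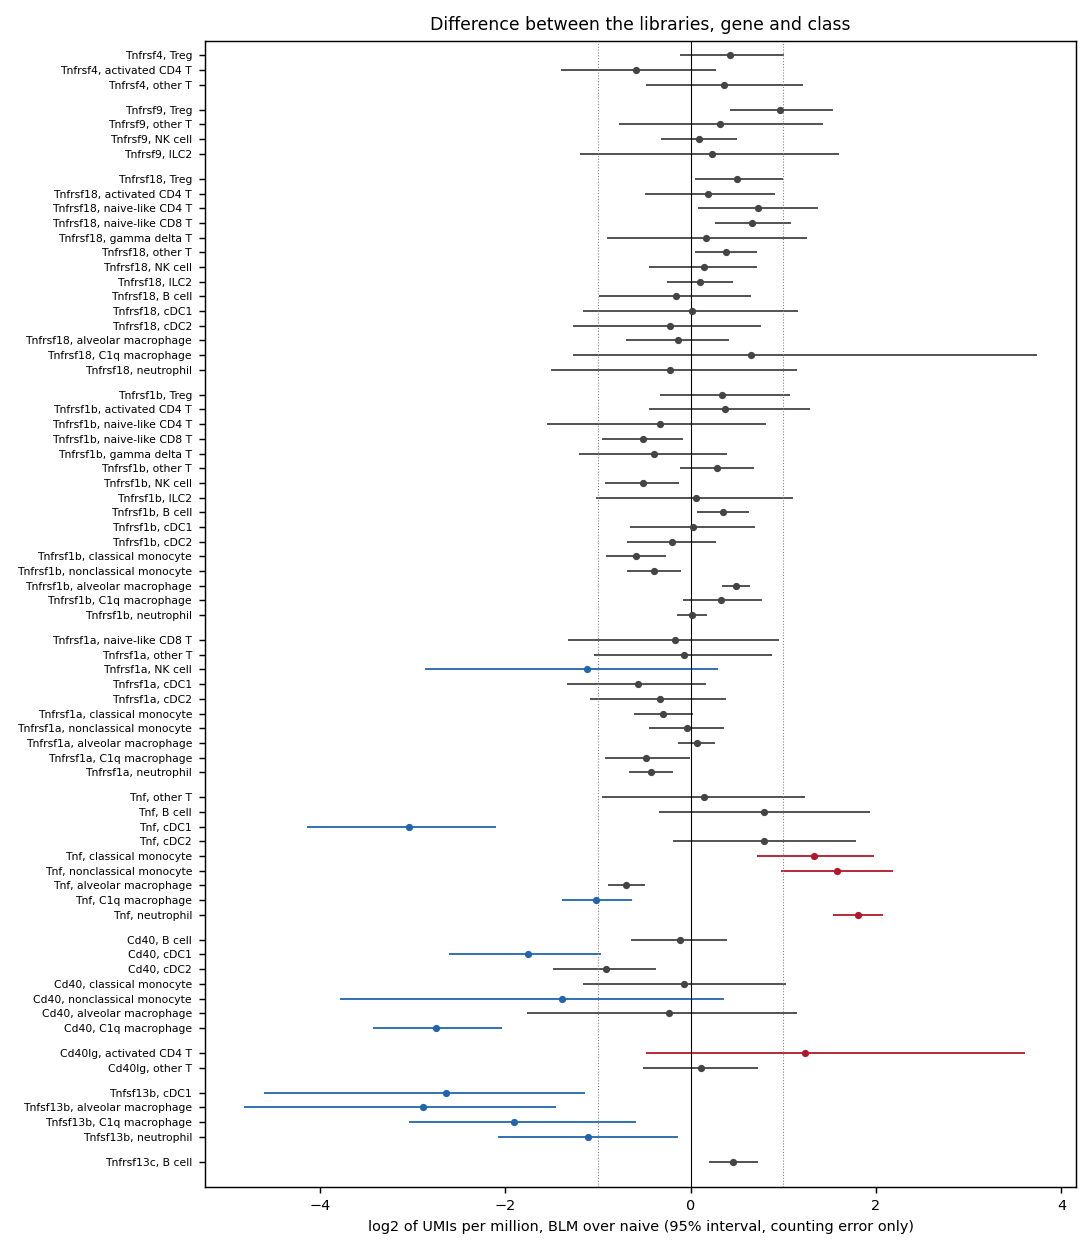
Log2 ratio of the level in the BLM library over the naive library (x axis, points with 95% counting intervals) for each gene and class with at least 20 UMIs in all and with UMIs in both libraries (y axis), with points at least 2-fold higher in BLM in red and at least 2-fold lower in blue, dotted lines marking 2-fold. Tnf lies above 1 in neutrophils and both monocyte classes and below −1 in cDC1 and C1q macrophages, and all 4 Tnfsf13b points lie below −1.

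Ligands of the T cell receptors were sparse apart from 4-1BB ligand. Tnfsf9, the ligand of 4-1BB, was at 43.7 CPM in BLM and 290 CPM in naive cDC1 (−2.73 [−3.44, −2.09]), at 112 and 373 CPM in cDC2 (−1.73 [−2.22, −1.27]) and at 50.4 and 415 CPM in C1q macrophages (−3.04 [−3.32, −2.75]). It was higher in BLM classical monocytes (44.2 and 11.3 CPM, 1.96 [0.94, 3.13]) and neutrophils (2.04 [0.32, 4.41]). Tnfsf4, the OX40 ligand, gave 64 UMIs in all BLM cells, 35 of them in mature DCs, and 29 in all naive cells with none in the 16 mature DCs. Tnfsf18, the GITR ligand, gave 1 and 2 UMIs. Of the 14 other ligands, 2 were tested in Tregs and neither passed 2-fold. In neutrophils 3 were tested, of which Tnfsf9 was at least 2-fold higher, where 5.30% of all genes tested were.

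Profiles over the 16 classes and 2 libraries, 32 points in all, were compared with those of 10902 other genes. These points share cells, libraries and depth, so the correlations describe the pattern only. The gene most like Tnfrsf4 was Ctla4 (Pearson r = 0.89), an inhibitory receptor of Tregs and activated T cells, followed by Ska1 (0.85) and Nrn1 (0.81). Tnfrsf9 was most like Klrg1 (0.83), Cysltr2 (0.83) and Rgs16 (0.82), and Tnfrsf18 most like Tox (0.95), Zap70 (0.93) and Gata3 (0.92). Tnf was most like Nlrp3 (0.85), Fam114a1 (0.84) and Tnfaip2 (0.83), and Tnfrsf1a most like Nfe2l2 (0.89), Tlr13 (0.89) and Emilin2 (0.88). Cd40 followed Cdc42ep5 (0.93) and the class II genes H2-Eb1 (0.93) and H2-Aa (0.91), and Tnfrsf13c followed Iglc1 (0.96), Igkv4-57-1 (0.95) and Spib (0.95). The values were lower for Cd40lg (Trat1, 0.83, Tmem191c, 0.79, Slamf1, 0.76), Tnfsf13b (Cd300c, 0.81, Nlrp3, 0.76, Itpkc, 0.75) and Tnfrsf1b (Cks2, 0.79, Cmip, 0.78, Fam32a, 0.77). Among the 10 genes the pairs most alike were Tnfrsf1a with Tnf (0.72) and Tnfrsf9 with Tnfrsf18 (0.71).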

How the data were processed

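Single-cell libraries of CD45+ lung cells, 1 from BLM-treated and 1 from naive mice, were read from UMI counts per cell and gene. Per the file headers, the authors made these counts with the BD Rhapsody WTA pipeline, version 1.8, on GRCm38 with GENCODE annotation, and deposited them uncorrected for depth. Whether counting used strand is not given in the sources used here. The libraries held 4714 and 4062 barcodes and 22490782 and 18019004 UMIs.

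Barcodes with at least 200 genes and at most 15% mitochondrial UMIs were kept. Scrublet (scanpy 1.11.5) ran per library. Its automatic thresholds called 9 and 54 cells, so the highest 3% of scores were left out instead (136 BLM and 118 naive cells). Cells joined the class with the most genes of 16 panels of 6 markers, with at least 2 genes and a lead of 1, and 4017 BLM and 3640 naive cells were assigned. T cells were then split by Foxp3, Cd4, Cd8a, Cd8b1 and Trdc. No panel held any of the 10 genes.

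UMIs were summed per class and library and given as CPM with exact Poisson intervals, shares with Clopper-Pearson intervals, and ratios with exact conditional intervals, all at 95% (scipy 1.17.1). Ratios needed 20 UMIs over both libraries and a fold against 0 used a floor of 3 UMIs, as did the limit on a share of 0 (3 cells of the total). Intervals and floors cover counting error only, and a fold against a floor leaves out the counting error of the BLM count. Scripts were tested on simulated data. With 1 library per group no test was made. The 10 genes and the gene lists were chosen with earlier results of these data known. The 10 genes were named throughout, with up to 3 genes per list and class whose ratio interval lay farthest from 0, any list gene in a short count, and the 3 genes most correlated in log2(CPM + 10) among those with 100 UMIs.

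Alternatives were at least 3 panel genes, classes from clusters (Seurat 5.3.0, R 4.3.3, 2000 variable genes without the 10, 30 dimensions, resolution 0.5), doublets kept, at most 10% mitochondrial UMIs, at least 500 genes, size factors, thinning to 1000 UMIs, and count minimums of 10 and 50 UMIs. A cluster was left unnamed where its marker name was not held by most of its cells, a rule set after the clusters were seen. Gates and clusters gave the same name to 6823 of the 7168 cells named by both (95.2%). Thinned ratios came from a single random draw of UMIs per cell, while thinned shares of cells are those expected over such draws.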

Additional observations from a re-analysis of the deposited data

Results flagged for a closer look

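Tnfrsf1b went in opposite directions in 2 myeloid classes, with counting intervals that left out 0 on either side. The log2 ratio of BLM over naive was 0.48 [0.33, 0.64] in alveolar macrophages and −0.59 [−0.92, −0.27] in classical monocytes. After thinning to 1000 UMIs the alveolar macrophage ratio was 0.10 [−0.49, 0.66]. Tnf did so too, with 1.801 [1.54, 2.07] in neutrophils and −3.04 [−4.14, −2.10] in cDC1. With 1 library per group, the difference was not tested in either case.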

How the results depend on the processing

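With 1 library per condition, replicate error is unknown, and depth limited most genes outside their leading classes. No paired analysis was possible because each group was 1 library. Of 34 ratios whose counting interval left out 0, the interval took in 0 for 2 with at least 3 panel genes, 4 with classes from clusters, 2 with doublets kept, 3 with at most 10% mitochondrial UMIs, 0 with at least 500 genes, 2 with size factors, and 17 of 33 after thinning, which by construction leaves fewer UMIs. After thinning, the log2 ratio of BLM over naive was 0.25 for Tnfrsf9 in Tregs and −1.66 for Cd40lg in CD4 T cells, and Tnfrsf1b in naive-like CD8 T cells turned to 0.11. The ratio of BLM Tregs over other T cells was 4.43 for Tnfrsf9 after thinning, and 1.72 for Tnfrsf18 and 1.26 for Tnfrsf1b with classes from clusters. Thinned BLM levels were 540.2 CPM for Tnfrsf4 and 759 CPM for Tnfrsf9 in Tregs, 540.5 CPM for Tnfrsf18 in ILC2, 711 CPM for Tnf in neutrophils and 35.3 CPM for Cd40lg in activated CD4 T cells. With a minimum of 50 UMIs, 3 of 49 pairs of gene and class were at least 2-fold higher and 5 lower. Over all genes at that minimum, 2424 of 59316 pairs (4.09%) were higher, 2966 were lower and 5390 (9.09%) passed 2-fold in either direction. The cause of these changes was not tested. Size factors shifted all log2 ratios of a class by −0.10 in cDC1, −0.12 in cDC2, 0.15 in alveolar macrophages, 0.18 in C1q macrophages and 0.11 in neutrophils.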

Other observations

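Mature DCs, with 69 cells in the BLM library and 16 in the naive library, carried the T cell receptors as well. They held 98 and 25 UMIs of Tnfrsf9 (223 CPM [181, 271] and 253 CPM [164, 374]) and 34 and 7 UMIs of Tnfrsf4 (77.2 CPM [53.5, 108] and 70.9 CPM [28.5, 146]). The log2 ratios of −0.19 [−0.83, 0.51] and 0.12 [−1.07, 1.54] did not separate the libraries. Tnfrsf1b was at 118 CPM [88.2, 155] and 253 CPM [164, 374] in these cells (−1.10 [−1.81, −0.35]).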
